A study of Homo sapiens with 6 samples.

Results

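The collapsin response mediator proteins (CRMPs) are a family of 5 genes, CRMP1, DPYSL2 (CRMP2), DPYSL3 (CRMP4), DPYSL4 (CRMP3) and DPYSL5 (CRMP5). Their transcripts were followed in 3 RNA-seq libraries of cells overexpressing DIS3L2 D391N and 3 libraries of control cells. The 5 genes, of 63190 in the table, have 35 of its 207167 transcripts. CRMP1 was selected on its summed level, which was lower in the D391N libraries, and its difference is therefore described here without a test. The other 4 genes joined as the rest of the family, and their differences were tested. All 5 genes and 16 of the 35 transcripts averaged 1 RPKM or more across the libraries.

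The cells are HEK293, a human embryonic kidney line, by the sample labels. The study's methods give the HEK293T-Rex background, in which doxycycline switches on an integrated construct. DIS3L2 is a 3′ to 5′ exoribonuclease that degrades uridylated RNAs, and D391N is its catalytically inactive form. No construct is named for the control cells, and the sources used here do not say whether they received doxycycline. Each condition is a cell line of its own, so construct, line and, if the libraries were loaded by condition, sequencing lane cannot be told apart. Nothing says that the libraries of a condition came from separate cultures, so p-values measure only the spread between these libraries, which may be technical. In bulk RNA, fewer cells that express a gene and less RNA per cell cannot be told apart.

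CRMPs are cytosolic proteins first known as mediators of the repulsive signal that semaphorin 3A gives to growing axons through neuropilin and plexin A receptors. They bind tubulin and other cytoskeletal proteins, and phosphorylation by CDK5, GSK3 and ROCK changes that binding. In sequence they resemble dihydropyrimidinase, an enzyme of pyrimidine breakdown, but lack its activity. Family members form mixed tetramers and are most abundant in the developing nervous system. Several of the genes use alternative first exons that give a short and a long form of the protein.

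The coding starts of the short forms of CRMP1, DPYSL3 and DPYSL4 are printed to show how close these genes are where their first exons begin to code. DPYSL5 was not compared and DPYSL2 was not read, so the likeness is not shown for the whole family. They were read from the GRCh37 genome with GENCODE v44 models lifted to that build. Capitals mark bases that differ from CRMP1.
CRMP1 ENST00000397890, chr4:5889955-5889993, minus strand: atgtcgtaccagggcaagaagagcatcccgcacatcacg
DPYSL3 ENST00000398514, chr5:146833112-146833150, minus strand: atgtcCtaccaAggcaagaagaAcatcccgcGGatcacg
DPYSL4 ENST00000338492, chr10:134000568-134000606, plus strand: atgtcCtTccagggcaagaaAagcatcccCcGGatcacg
Of these 39 bases, 34 were the same in DPYSL3 and CRMP1 and 33 in DPYSL4 and CRMP1. The transcripts of these starts had different levels, as given below. The second short CRMP1 transcript begins to code in another exon, shown because it was also at a lower level in the D391N libraries, with its start codon in capitals.
CRMP1 ENST00000512574, chr4:5891352-5891384, minus strand: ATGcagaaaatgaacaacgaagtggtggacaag

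DIS3L2 checked the labels: its sum over all transcripts, the construct included, was 449 ± 73.0 RPKM (SD, n = 3) in D391N and 13.1 ± 1.40 RPKM (SD, n = 3) in control libraries. RPKM is reads per length and library size. Read totals were not used here, and relative depth, taken from the floor that the table gives to transcripts with no reads, differed 1.62-fold between the deepest and the shallowest library. Gene levels correlated less among D391N libraries (Pearson r on the log2 scale, across genes, 0.885 to 0.935) than among controls (0.959 to 0.977). Of 20714 genes tested, 29 (0.14%) passed an adjusted p of 0.05 in limma, 28 lower and 1 higher in D391N, while 4712 had an unadjusted p under 0.05. The median log2 difference of all genes tested was -0.09, and scaling by median centring moved it by 0.22 and quantile normalization by 0.17. Markers of HEK293 cells summed to 326 to 375 RPKM in D391N and 457 to 509 RPKM in control libraries, and 3 of 6 tested were lower without overlap, as were 20.7% of all tested genes. Their part in the results below was not tested. Markers of differentiated neurons summed to 10.4 to 14.6 RPKM and 12.1 to 14.5 RPKM, those of fibroblasts to 6.72 to 12.7 and 7.16 to 8.22 RPKM, and those of leukocytes to 31.8 to 51.3 and 25.9 to 32.1 RPKM. Most of the leukocyte sum was LCP1, an actin-bundling protein (39.2 and 26.8 RPKM), while the T cell marker CD3E was near 0 (0.113 and 0.0992 RPKM). Of the HEK293 markers, KRT8 was at 107 and 172 RPKM, VIM at 121 and 162 RPKM, KRT18 at 33.0 and 39.4 RPKM, NEFL at 43.7 and 64.8 RPKM, CDH2 at 37.6 and 35.1 RPKM and PAX2 at 1.65 and 1.71 RPKM. NEFM was near 0 in both conditions (0.366 and 0.375 RPKM).

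CRMP1 lies on the minus strand at chr4:5820764-5893086 of GRCh38 (ENSG00000072832). Its level was 1.43, 1.17 and 1.37 RPKM in the D391N libraries and 6.49, 5.70 and 6.84 RPKM in the control libraries, in the order of replicates 1, 2 and 3 here and throughout. Every D391N library was below every control library, a pattern that 20.7% of all tested genes had, and CRMP1 was selected for its lower level. D391N libraries averaged 1.33 ± 0.137 RPKM (SD, n = 3) and controls 6.34 ± 0.581 RPKM (SD, n = 3), 4.78 times higher in control. The log2 difference of -2.18 on the log2(RPKM + 0.1) scale lay at percentile 2.32 among all genes tested. By the posterior variance, these sums rested on about 17.8, 9.3 and 19.4 reads in D391N and 100.9, 115.1 and 80.9 reads in control libraries. The posterior variance covers counting and assignment error only. Read numbers here and below are estimates from it, so uncertain assignment between isoforms makes them smaller than the reads placed.

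All 6 transcripts of CRMP1 had a lower mean in D391N, but they are parts of the sum on which the gene was chosen. ENST00000324989 and ENST00000511535 overlapped between conditions, on at most 2.2 reads. ENST00000513911 was lower without overlap, on at most 1.0 reads in D391N. ENST00000397890, a short form of 572 codons, was at 0.839, 0.362 and 0.370 RPKM in D391N and at 2.62, 3.05 and 2.35 RPKM in control libraries. It was lower in all D391N libraries, on 14.4, 3.1 and 4.0 reads. ENST00000506216 has no defined coding sequence and was at 0.384, 0.264 and 0.452 RPKM in D391N and at 2.23, 1.62 and 2.77 RPKM in control libraries. The D391N values rested on 1.0, 0.7 and 3.1 reads and the control values on 22.1, 13.7 and 29.3 reads. In GENCODE, 159 of its 1876 bases (8.5%) overlap exons of EVC on the opposite strand. EVC, a component of the primary cilium, was at 5.72 RPKM in D391N and 8.16 RPKM in control libraries (log2 difference -0.51, adjusted p = 0.196 in limma). ENST00000512574, of 570 codons, was at 0.147, 0.382 and 0.451 RPKM in D391N and at 1.31, 0.876 and 1.47 RPKM in control libraries. The long form ENST00000324989, of 686 codons, was at no more than 0.117 RPKM in any library, on at most 1.1 reads. The largest CRMP1 share, that of ENST00000397890, was 58.6%, 30.9% and 27.0% of the sum in D391N and 40.4%, 53.5% and 34.3% in control libraries, with overlap.

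The 250 bases before 2 CRMP1 starts are printed because transcripts from the first were detected and those from the second hardly were. They are RefSeq sequences on GRCh38.p14, minus strand, and capitals mark GC boxes, GGGCGG on either strand.
Start of ENST00000397890, chr4:5888500-5888749: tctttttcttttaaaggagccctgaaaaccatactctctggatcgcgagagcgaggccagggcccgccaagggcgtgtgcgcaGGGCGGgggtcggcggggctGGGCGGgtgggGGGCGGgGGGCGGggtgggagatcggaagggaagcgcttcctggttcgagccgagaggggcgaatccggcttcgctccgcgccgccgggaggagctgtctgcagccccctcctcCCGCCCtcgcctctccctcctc
Start of ENST00000324989, chr4:5893087-5893336: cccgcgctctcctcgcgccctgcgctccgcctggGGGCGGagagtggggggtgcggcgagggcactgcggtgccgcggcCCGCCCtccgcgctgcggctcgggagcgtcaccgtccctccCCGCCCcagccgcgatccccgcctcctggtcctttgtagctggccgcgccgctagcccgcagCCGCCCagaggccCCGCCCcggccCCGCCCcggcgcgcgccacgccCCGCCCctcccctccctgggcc
The first window held 5 GC boxes and the second 7. At least 1 GC box was found in 42.6% of 35116 RefSeq promoter windows of this length, at least 5 in 4.1% and at least 7 in 1.1%. Neither of these windows held TATAAA (10.7% of all windows), CCAAT (32%) or CACGTG (6.3%). Other CRMP1 windows, not printed, held fewer GC boxes: 1 at chr4:5890222-5890471, with 1 CACGTG, and 2 at chr4:5887814-5888063. These are matches of letters and not shown to be sites.

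DPYSL4, which regulates cytoskeletal dynamics in neurons, was also at a lower level in the D391N libraries. The gene lies on the plus strand at chr10:132186948-132205759 of GRCh38 (ENSG00000151640). It was at 1.39, 1.34 and 1.36 RPKM in D391N and at 3.45, 3.54 and 4.77 RPKM in control libraries. Every D391N library was below every control library. D391N libraries averaged 1.37 ± 0.0237 RPKM (SD, n = 3) and controls 3.92 ± 0.736 RPKM (SD, n = 3), 2.87 times higher in control. The log2 difference was -1.44 (SE 0.22, 95% interval -1.96 to -0.92), and its adjusted p of 0.0609 in limma missed the threshold. It passed without D391N replicate 1 (log2 difference -1.45, adjusted p = 0.0289). With any other library left out or another planned setting, the adjusted p was between 0.0602 and 0.273.

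All 5 transcripts of DPYSL4 had a lower mean in D391N, and the most abundant was ENST00000338492, of 2664 nt and 572 codons. It was at 0.590, 0.699 and 0.699 RPKM in D391N and at 2.60, 2.02 and 3.61 RPKM in control libraries. The conditions did not overlap, on 29.8, 35.8 and 34.2 reads against 163.4, 99.8 and 181.4 reads. Its log2 difference was -1.87 (SE 0.35, 95% interval -2.70 to -1.03, adjusted p = 0.108 in limma), and it passed without D391N replicate 1 (log2 difference -1.79, adjusted p = 0.0427). In the other settings run the adjusted p of this transcript was between 0.0848 and 0.378. Of the 54671 transcripts tested, 33 (0.0604%) passed the threshold. Its share of the DPYSL4 sum was 42.4%, 52.1% and 51.2% in D391N and 75.4%, 57.2% and 75.7% in control libraries (exact permutation test, two-sided, p = 0.10, the smallest that 3 libraries against 3 allow). The other 4 transcripts ranged from 0.0407 to 0.494 RPKM over the libraries, each on at most 3.6 reads. With the rest so low, the share largely follows the level of ENST00000338492, so the share test cannot show a separate change between isoforms. Of these 4, ENST00000368627 was lower without overlap on at most 1.0 reads. Summed over transcripts of at least 1000 nt, a setting chosen after seeing the data, DPYSL4 was at 0.635, 0.740 and 0.790 RPKM in D391N and at 2.74, 2.33 and 3.72 RPKM in control libraries. In that setting it fell by 1.86 on the log2 scale (SE 0.25, adjusted p = 0.0128 in limma), but 892 of 12997 genes (6.86%) passed there.

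The 250 bases before the start of ENST00000338492 are printed for comparison with the CRMP1 windows, from RefSeq on GRCh38.p14, plus strand, with GC boxes in capitals.
DPYSL4, chr10:132186698-132186947: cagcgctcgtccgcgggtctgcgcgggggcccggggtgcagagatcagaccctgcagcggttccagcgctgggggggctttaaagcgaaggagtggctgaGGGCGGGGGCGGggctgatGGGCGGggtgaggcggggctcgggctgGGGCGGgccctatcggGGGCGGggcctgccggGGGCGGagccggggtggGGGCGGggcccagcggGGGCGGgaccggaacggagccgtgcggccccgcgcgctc
It held 8 GC boxes, a number reached by 0.6% of all windows, and none of the other 3 motifs. Its GC content was 80.0%, that of the CRMP1 window before ENST00000397890 was 70.4%, and the median of all windows was 58.0%.

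**Figure D1:**
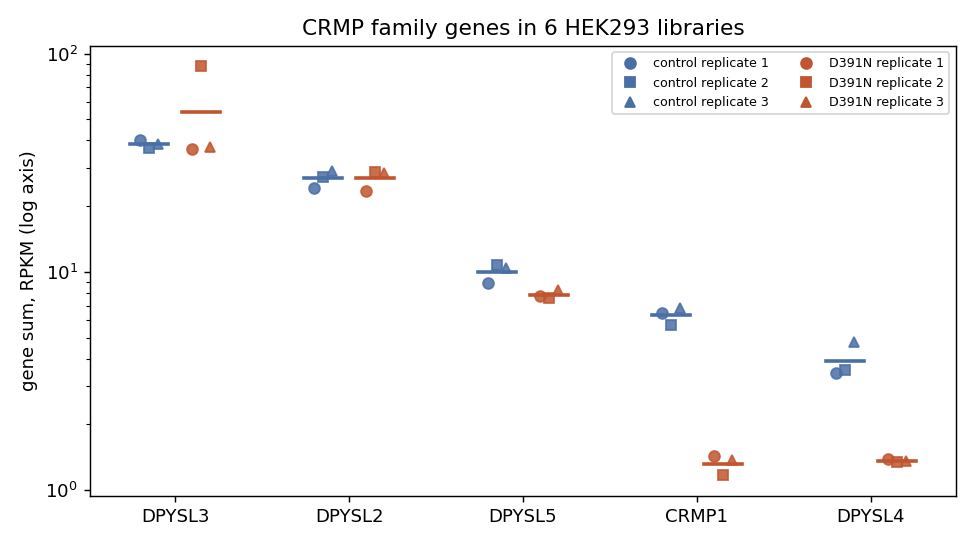
Summed level of each CRMP family gene in RPKM (vertical log axis) in the 3 D391N and 3 control libraries. Each point is 1 library and each line a mean. CRMP1, DPYSL4 and, by less, DPYSL5 sit lower in every D391N library than in any control library, as do 20.7% of all tested genes. DPYSL2 overlaps between conditions, and DPYSL3 has 1 high D391N library at 87.4 RPKM.

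**Figure D2:**
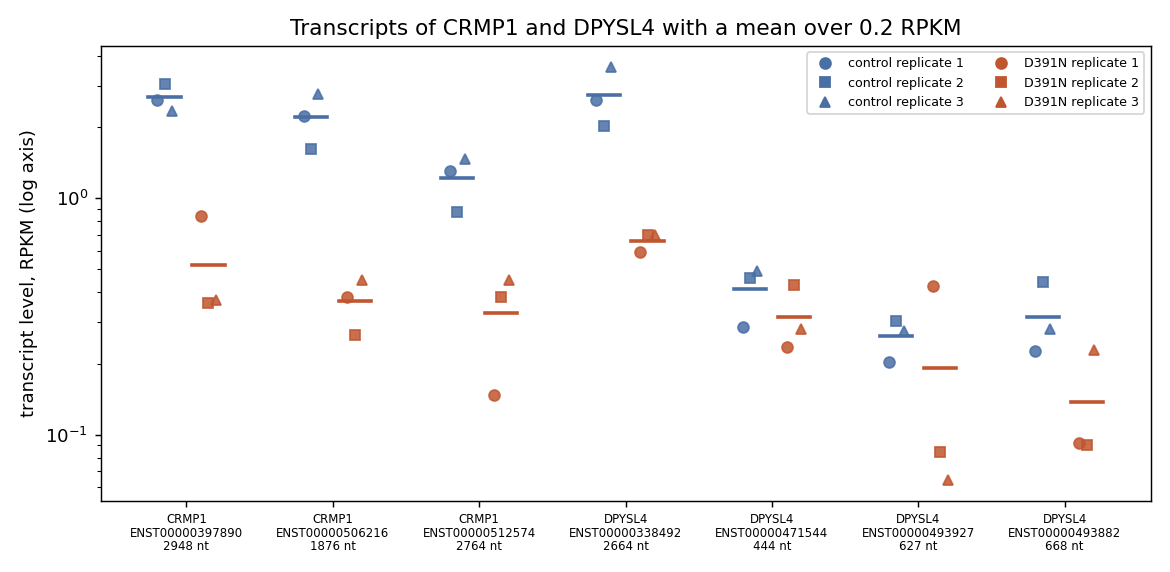
Level in RPKM (vertical log axis) of the more abundant transcripts of CRMP1 and DPYSL4, with each point 1 library and each line a mean. The CRMP1 transcripts ENST00000397890 and ENST00000506216 and the DPYSL4 transcript ENST00000338492 are lower in all 3 D391N libraries than in any control library.

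DPYSL5, which binds other CRMPs and limits neurite growth, differed less. It lies on the plus strand of chromosome 2 of GRCh38, from 26847995 to 26950351 (ENSG00000157851). It was at 7.72, 7.59 and 8.22 RPKM in D391N and at 8.90, 10.7 and 10.4 RPKM in control libraries, without overlap. D391N libraries averaged 7.84 ± 0.334 RPKM (SD, n = 3) and controls 10.0 ± 0.975 RPKM (SD, n = 3). The log2 difference was -0.34 (SE 0.15, 95% interval -0.70 to 0.01, adjusted p = 0.229 in limma). It was -0.125 by median centring (adjusted p = 0.681 in limma) and -0.167 by quantile normalization (adjusted p = 0.555 in limma). Leaving out CRMP1, which was chosen for its lower level, 2 of 4 members (DPYSL4 and DPYSL5) had each D391N library below each control library, a pattern that 20.7% of all tested genes had. None was above without overlap, which 10.5% of genes were.

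None of the 3 tested transcripts of DPYSL5 passed the threshold. ENST00000288699, of 564 codons, was at 2.85, 0.556 and 2.78 RPKM in D391N and at 4.07, 4.62 and 4.23 RPKM in control libraries. It was lower without overlap, with D391N replicate 2 far below the others (log2 difference -1.31, SE 0.60, adjusted p = 0.311 in limma). Its estimated reads were 4.7, 0.0 and 25.0 in D391N and 4.2, 28.6 and 20.1 in control libraries, values that uncertain assignment between isoforms lowers. Without D391N replicate 2 the log2 difference was -0.59 (adjusted p = 0.342 in limma). ENST00000401478 was at 1.11, 2.65 and 4.15 RPKM in D391N and at 1.83, 3.29 and 2.07 RPKM in control libraries, with overlap. The retained-intron transcript ENST00000484882 was at 2.06, 0.521 and 0.538 RPKM against 1.31, 1.61 and 2.83 RPKM (log2 difference -1.01, adjusted p = 0.408 in limma), and without D391N replicate 1 the log2 difference was -1.61. The share of ENST00000288699 was 36.9%, 7.3% and 33.8% in D391N and 45.7%, 42.9% and 40.7% in control libraries (exact permutation test, two-sided, p = 0.10, the smallest possible). The difference of -17.1 percentage points was -7.77 without D391N replicate 2.

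DPYSL3, which takes part in growth cone and actin organisation, had the highest sum of the family over all transcripts. It lies on the minus strand of chromosome 5 of GRCh38, from 147390808 to 147510068 (ENSG00000113657). It was at 36.6, 87.4 and 37.5 RPKM in D391N and at 40.1, 37.1 and 38.6 RPKM in control libraries. Replicate 2 of D391N stood far above the other 5 libraries, which lay close together. D391N libraries averaged 53.8 ± 29.0 RPKM (SD, n = 3) and controls 38.6 ± 1.5 RPKM (SD, n = 3), with a log2 difference of 0.35 (SE 0.34, 95% interval -0.45 to 1.16, adjusted p = 0.567 in limma). Without D391N replicate 2 the log2 difference was -0.06 (adjusted p = 0.823).

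The high library came from short transcripts. ENST00000519672, of 572 nt and with no defined coding sequence, was at 18.0, 58.0 and 18.0 RPKM in D391N and at 18.1, 17.6 and 16.9 RPKM in control libraries. Its log2 difference was 0.60 (SE 0.48, adjusted p = 0.537 in limma), and its share of the DPYSL3 sum was 49.0%, 66.4% and 47.9% against 45.1%, 47.4% and 43.9% (exact permutation test, two-sided, p = 0.10, the smallest possible). That share difference of 9.0 percentage points was 2.99 without D391N replicate 2. ENST00000512722, of 539 nt, was at 0.850, 12.8 and 4.42 RPKM in D391N and at 0.421, 0.252 and 0.395 RPKM in control libraries. It was higher without overlap, but every control value rested on at most 1.1 reads (adjusted p = 0.19 in limma). It passed without D391N replicate 1 (adjusted p = 0.0161), and in the other settings run the adjusted p was between 0.171 and 0.472. Of all tested transcripts, 10.1% were above without overlap.

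The long coding transcript of DPYSL3 went the other way. ENST00000343218, of 5492 nt and 684 codons, was at 10.9, 11.3 and 11.4 RPKM in D391N and at 14.9, 14.7 and 15.2 RPKM in control libraries. The conditions did not overlap, but the log2 difference of -0.41 (SE 0.21) had an adjusted p of 0.346 in limma. The retained-intron transcript ENST00000508042 was at 0.756, 1.35 and 0.914 RPKM against 2.08, 1.79 and 2.85 RPKM (log2 difference -1.09, adjusted p = 0.215). Lower values without overlap were found in 15.6% of all tested transcripts. ENST00000504965, of 771 nt, had a log2 difference of 0.03 (adjusted p = 0.967). The short form ENST00000398514 was at 3.95, 0.172 and 0.121 RPKM in D391N and at 1.22, 0.141 and 0.852 RPKM in control libraries, with overlap and no stable direction.

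**Figure D3:**
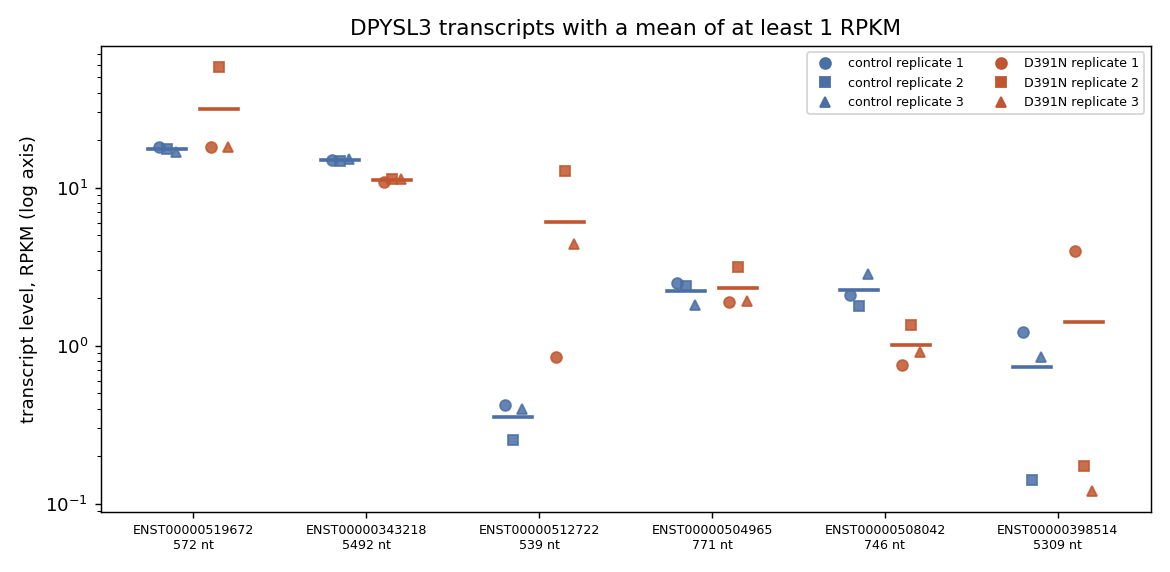
Level in RPKM (vertical log axis) of the tested DPYSL3 transcripts, with each point 1 library and each line a mean. In D391N replicate 2 the short transcript ENST00000519672 reaches 58.0 RPKM, while ENST00000343218 is at 10.9 to 11.4 RPKM in D391N and at 14.7 to 15.2 RPKM in control libraries.

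DPYSL2, the best studied member, promotes microtubule assembly by carrying tubulin dimers, and it had the same mean in both conditions. It lies on chromosome 8 of GRCh38, from 26514031 to 26658175 (ENSG00000092964). It was at 23.4, 28.8 and 28.4 RPKM in D391N and at 24.3, 27.2 and 29.0 RPKM in control libraries. D391N libraries averaged 26.8 ± 2.99 RPKM (SD, n = 3) and controls 26.8 ± 2.36 RPKM (SD, n = 3), and the 95% interval of the log2 difference was -0.36 to 0.36 (adjusted p = 0.999 in limma). ENST00000311151 was at 10.5, 12.1 and 17.1 RPKM in D391N and at 12.7, 12.4 and 10.9 RPKM in control libraries. ENST00000521913 was at 7.06, 10.6 and 8.74 RPKM against 8.10, 10.5 and 13.0 RPKM, and both transcripts overlapped between conditions. The short transcripts ENST00000523690 (544 nt) and ENST00000474808 (566 nt) had log2 differences of 0.51 and -0.37, with adjusted p of 0.74 and 0.808 in limma. Without D391N replicate 3 they were 1.23 and 0.23.

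The order of the levels per length in control libraries was DPYSL3 (38.6 RPKM), DPYSL2 (26.8 RPKM), DPYSL5 (10.0 RPKM), CRMP1 (6.34 RPKM) and DPYSL4 (3.92 RPKM). The library values of neighbours in this order did not overlap. The first place rests on short transcripts: summed over transcripts of at least 1000 nt, DPYSL2 was above DPYSL3 in control (23.2 and 15.7 RPKM) and in D391N libraries (22.6 and 12.7 RPKM). In D391N libraries, with all transcripts summed, the first 3 kept their places, and DPYSL4 (1.34 to 1.39 RPKM) and CRMP1 (1.17 to 1.43 RPKM) overlapped. The family summed to 70.6, 126.0 and 76.9 RPKM in D391N and to 83.3, 84.3 and 89.5 RPKM in control libraries. Without DPYSL3 the sums were 33.9, 38.9 and 39.3 RPKM against 43.1, 47.1 and 51.0 RPKM. CRMP1 made up 2.03%, 0.928% and 1.79% of the family sum in D391N and 7.79%, 6.76% and 7.64% in control libraries.

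The rest of the pathway was read from lists of ligands, receptors, kinases, partners and cytoskeletal genes, and no gene of any list passed the threshold. The counts without overlap below stand beside 20.7% of all tested genes that were lower and 10.5% that were higher in that way. Of 5 semaphorin 3 ligands tested, 1 was higher and 1 lower without overlap, with a median log2 difference of 0.18 beside -0.09 over all genes. SEMA3C, a secreted guidance cue, was at 14.7, 20.5 and 19.8 RPKM in D391N and at 13.5, 12.8 and 10.7 RPKM in control libraries (log2 difference 0.56, adjusted p = 0.157 in limma). SEMA3F, another repulsive cue, had a log2 difference of -0.72 (adjusted p = 0.233). Of 7 semaphorin 3 receptor genes tested, 1 was lower without overlap, and the median was -0.14. NRP1, the neuropilin that binds semaphorin 3A, was at 33.0, 40.4 and 33.3 RPKM in D391N and at 35.6, 36.7 and 34.2 RPKM in control libraries. The plexin genes PLXNA2 and PLXNA1 had log2 differences of -0.36 and -0.30 (adjusted p = 0.248 and 0.54).

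The kinase list also holds CDK5R1, a regulatory subunit of CDK5 and not a kinase. Of 8 genes of this list tested, 4 were higher (10.5% of all genes) and 1 was lower (20.7%) without overlap, with a median of 0.13. GSK3A, which phosphorylates CRMPs after a priming kinase, was at 8.03, 3.35 and 5.49 RPKM in D391N and at 15.1, 11.3 and 14.1 RPKM in control libraries (log2 difference -1.32, SE 0.32, adjusted p = 0.108 in limma). CDK5, the priming kinase, was at 7.08, 2.21 and 4.15 RPKM against 11.1, 10.9 and 6.69 RPKM, with overlap. FYN, a tyrosine kinase and the most abundant of the list, was at 124, 142 and 124 RPKM against 98.8, 108 and 113 RPKM (adjusted p = 0.29). Of 10 partner genes, 1 was higher without overlap, and the median was 0.21. That gene was KIF5B, a kinesin heavy chain, at 219, 259 and 212 RPKM in D391N and 135, 139 and 135 RPKM in control libraries (log2 difference 0.75, SE 0.16, adjusted p = 0.0907). The partner FLNA, a crosslinker of actin, had a log2 difference of 0.38 (adjusted p = 0.325).

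Of 11 neuronal cytoskeleton genes tested, 10 had a lower mean in D391N and 3 were lower without overlap, near the 20.7% of all genes, with a median log2 difference of -0.27. By median centring this median was -0.05. TUBB2B, a neuronal beta tubulin, was at 23.2, 20.3 and 22.1 RPKM in D391N and at 39.5, 42.5 and 36.4 RPKM in control libraries (log2 difference -0.85, SE 0.14, adjusted p = 0.0658 in limma). TUBA1A, an alpha tubulin of developing neurons, was at 35.5, 52.3 and 34.3 RPKM against 69.5, 76.5 and 61.3 RPKM (adjusted p = 0.115). STMN1, a protein that destabilises microtubules and the most abundant of the list, overlapped between conditions (adjusted p = 0.807). Of the 3 dihydropyrimidinase pathway enzymes only UPB1 was tested, with a log2 difference of 0.07 (adjusted p = 0.925).

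**Figure D4:**
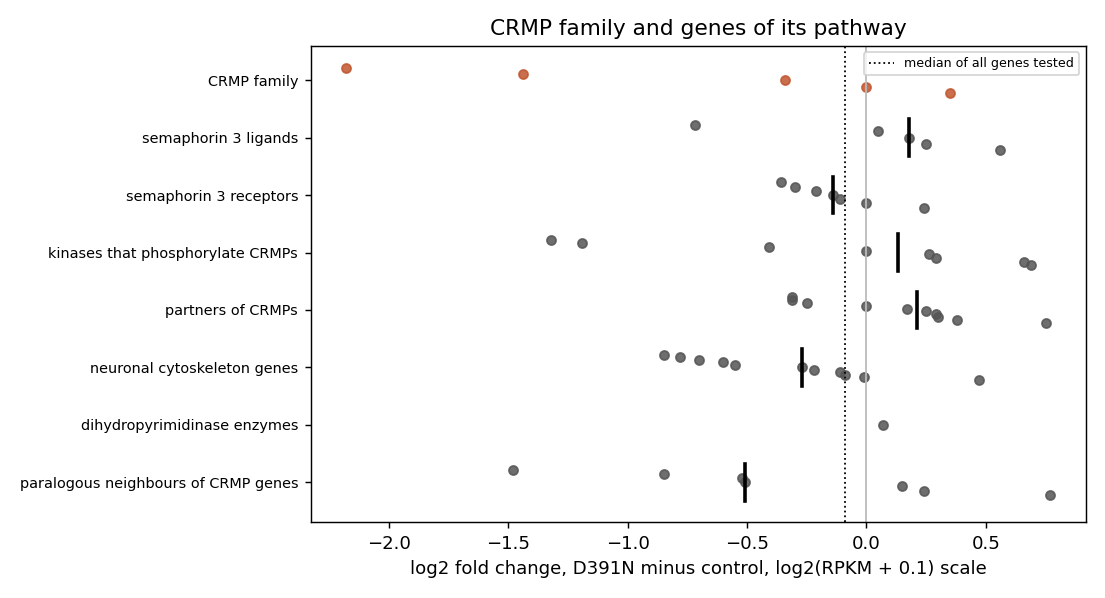
Log2 difference (D391N minus control, on the log2(RPKM + 0.1) scale) of each tested gene in the CRMP family and the lists. Each point is 1 gene, bars are the medians of lists with more than 1 gene, and the dotted line is the median of all genes tested, -0.09. The cytoskeleton list has its median at -0.27 and the kinase list at 0.13, and no gene of any list passed the threshold.

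Several CRMP genes share their neighbourhood with related genes, among them members of the JAKMIP, STK32 and PPP2R2 families. The list also holds EVC, which overlaps CRMP1 and belongs to none of these families. Of 7 genes of the list tested, 4 were lower (20.7% of all genes) and 1 was higher (10.5%) without overlap. The median log2 difference was -0.51, and by median centring it was -0.29. EVC was 1 of the 4 lower genes, and its own log2 difference was -0.51. STK32C, a kinase gene next to DPYSL4, was at 5.71, 3.67 and 3.41 RPKM in D391N and at 11, 11 and 13.4 RPKM in control libraries (log2 difference -1.48, SE 0.23, adjusted p = 0.0645 in limma). On the other side of DPYSL4, JAKMIP3 was at 0.115 and 0.249 RPKM and was not tested. JAKMIP1, the third annotated gene beyond CRMP1, was at 1.12, 1.81 and 1.82 RPKM in D391N and at 2.19, 2.12 and 2.51 RPKM in control libraries (adjusted p = 0.29). PPP2R2C, another phosphatase subunit gene, had a log2 difference of -0.85 (adjusted p = 0.101). PPP2R2A, a regulatory subunit of protein phosphatase 2A and the most abundant of the list, was at 220, 225 and 217 RPKM against 126, 141 and 120 RPKM (log2 difference 0.77, adjusted p = 0.0836).

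Genes with the pattern most like each member were ranked by Pearson r of log2 levels over the 6 libraries, as a description, since the 6 points share 2 conditions. For CRMP1 these were RTKN (r = 0.9987), TYSND1 (r = 0.998) and AMOT (r = 0.9979). For DPYSL4 they were MAP3K6 (r = 0.9986), GTPBP1 (r = 0.9976) and ARAP3 (r = 0.9975). An r over 0.99 was reached by 35 genes for CRMP1, 43 for DPYSL4, 11 for DPYSL3, 2 for DPYSL5 and 0 for DPYSL2. For DPYSL3, whose pattern is its high library, they were ENSG00000247324 (r = 0.9993), PKM (r = 0.9981) and TWNK (r = 0.9974). For DPYSL5 they were RN7SKP170 (r = 0.9988), SLCO5A1 (r = 0.9973) and MIATNB (r = 0.9889), and for DPYSL2 NUDT6 (r = 0.9888), MED12 (r = 0.9862) and TMEM186 (r = 0.9661).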

How the data were processed

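RNA was depleted of rRNA before library preparation. Adapters were removed by the authors with cutadapt, Segemehl placed the reads on Ensembl transcripts of hg38, and BitSeq gave the levels (versions not given in the sources used here). The deposited values are, per library and transcript, a natural log RPKM (BitSeq's posterior mean) and a posterior variance, a score of precision. The log base was read from the values. Here they were exponentiated to RPKM, summed per gene and changed to log2(RPKM + 0.1), which understates changes of low genes. Genes and transcripts averaging 1 RPKM or more were tested with limma 3.58.1 in R 4.3.3 (empirical Bayes with trend, Benjamini-Hochberg adjustment), on all of the table. Python 3.11.15, pandas 2.3.3, numpy 2.4.6, scipy 1.17.1 and matplotlib 3.10.9 served for the rest. Reads were estimated from the posterior variance, and uncertain assignment lowers the estimate. ENST00000343218 had 102.8 at 10.9 RPKM in D391N replicate 1 and 1105.6 at 11.4 RPKM in D391N replicate 3. BitSeq divides shared reads among isoforms and similar genes, so isoform levels depend on each other. The procedure was tested on simulated data. The members and lists were chosen with earlier results of these data known. Named are all members, their transcripts averaging 1 RPKM or more, DIS3L2, in each pathway and neighbour list the most abundant tested gene and the 2 with the largest differences, and the 3 genes most like each member. Others named, such as the cell type markers, ENST00000368627, EVC, JAKMIP1, JAKMIP3, CDK5R1, ENST00000324989, ENST00000511535, ENST00000513911 and ENST00000512574, were added once their values had been seen. Of the genes 88.2% had a symbol, and 90.2% of the transcripts had a length. Alternatives were other pseudocounts, filters, scalings, a replicate block, limma without trend, sums over transcripts with 3 or more reads, and each library left out.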

Additional observations from a re-analysis of the deposited data

How the results depend on the processing

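Counts of calls moved with most settings. The 29 genes called became 61 with a pseudocount of 1, 16 with 0.01, 6 with a mean of at least 5 RPKM, 18 without a filter, 14 by median centring, 17 by quantile normalization and 892 with sums over transcripts of at least 1000 nt, chosen after seeing the data. Leaving out 1 library gave 2 to 2267 genes, the highest without D391N replicate 1. The 33 transcripts called became 142 with a pseudocount of 1, 17 with a mean of at least 5 RPKM, 18 without a filter and 52 with limma without trend, and 2 to 4984 with 1 library left out.

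Departures from the group means correlated at 0.07, 0.221 and -0.111 within the replicate numbers 1, 2 and 3. These values cannot show whether same-numbered libraries shared a batch. With a replicate block 2 genes and 7 transcripts were called, and the adjusted p of DPYSL4 was 0.158.

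The CRMP1 log2 difference was -1.66 with a pseudocount of 1, -1.96 by median centring and -1.93 by quantile normalization. DPYSL2 was at 0.22 by median centring and 0.044 by quantile normalization and ranged from -0.069 to 0.095 with 1 library left out. DPYSL3 was at -0.32 with sums over transcripts of at least 1000 nt and ranged from -0.057 to 0.57 with 1 library left out. DPYSL4 kept its direction in all settings run, at -1.86 with sums over transcripts of at least 1000 nt and from -1.52 to -1.30 with 1 library left out. With 1 library left out, ENST00000311151 ranged from -0.088 to 0.26, ENST00000474808 from -0.86 to 0.23, ENST00000504965 from -0.20 to 0.15, ENST00000398514 from -0.84 to 0.64 and ENST00000401478 from -0.41 to 0.50. ENST00000398514 was at 0.16 with a pseudocount of 1 and 0.14 by quantile normalization, and ENST00000401478 at 0.031 with that pseudocount, 0.070 by median centring and 0.072 by quantile normalization. The share difference of the top isoform ranged from -13.8 to 2.01 percentage points in CRMP1 and from -1.78 to 7.44 in DPYSL2. The causes were not tested. A mean of at least 5 RPKM left no value for CRMP1 and DPYSL4. In D391N libraries CRMP1 had the fewest estimated reads of the 5 genes, 9.3 to 19.4. Depth and uncertain assignment were not told apart in these estimates.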
